A study of Mus musculus with 2 samples.

Results

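Genes of the centrosome, the kinetochore and the kinesin motors were examined among the RNAs recovered with BUD31, a protein of the spliceosome, in mouse germ cells. Members were the rows of the authors' peak list whose type is protein-coding and whose gene symbol starts with Cep or Kif and a digit, or with Cenp, Haus, Tubg, Pcm or Cdk5rap. The rule took 219 of 16331 peaks and 28 of 3258 genes. By symbol 18 genes were assigned to the centrosome, 6 to the kinetochore (Cenp) and 4 to the kinesins (Kif). Pcmtd1 and Pcmtd2, which share the prefix Pcm, are annotated as methyltransferase-domain genes and are not known as centrosome genes, and they are kept in the counts because the rule names them.

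The study has 2 libraries from testicular germ cells of C57BL/6J mice at postnatal day 14, released by enzymatic digestion. In 1 library RNA was precipitated with an anti-BUD31 antibody (RNA immunoprecipitation sequencing, RIP-seq), and the other is the input, made from 10% of the total RNA. A peak is a stretch of the mm10 genome in the authors' list, with no score, count or strand beside it, so how deeply each library was sequenced is not known, and the values are the number, width, annotation and position of peaks. Each group is a single library, so no difference has a replicate check and no p-value is given. Intervals are 95% Wilson intervals and hold only the counting error over genes or peaks. Of 10 germ cell markers, 7 lie on chromosomes with a peak and 6 of these had one, with 38 peaks in Tex11 and 15 in Boll. Of 12 markers of somatic testis cells 11 lie there, and 2 had 1 peak each (Wt1 and Myh11). Over all coding genes of these chromosomes 18.1% had a peak. On the 8 chromosomes best covered by the list, 5 of 5 germ cell markers and 1 of 5 somatic markers had a peak, against 46.1% and 28.8% of coding genes of like chromosome and span. The other markers on chromosomes with a peak lie where 2.1% of coding genes have one. On chromosomes 11 and 19, which hold the somatic markers Sox9, Pecam1, Cyp17a1 and Acta2, no coding gene has a peak, so these could not have one.

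The centrosome is built from a pair of centrioles within a scaffold of pericentriolar material that nucleates microtubules. Kinetochores assemble on centromeric chromatin and attach chromosomes to those microtubules, and kinesins move along them. In the testis these structures serve the mitotic divisions of spermatogonia and the meiotic divisions of spermatocytes, and a centriole later gives rise to the axoneme of the sperm tail.

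For a few members a peak covers a transcription start, and the sequences there are shown. In Kif4 and Cep85l this start is the 5′ end of the gene, and in Cep170 it is an internal start. RefSeq windows of 250 bases before to 50 after a start (GRCm38.p6, which is the mm10 assembly) were matched for 19 of the 28 members, in 21 windows. A peak overlapped the window in 3 of these 19 members (15.8%, 5.52% to 37.6%) and in 290 of 2117 other protein-coding genes with a peak (13.7%, 12.3% to 15.2%). The interval of the members includes the share of the other genes. Each sequence runs 5′ to 3′ on the strand of the gene, from 250 bases before to 30 bases from the start on. Capitals mark matches to the GC box GGGCGG, to CCAAT and to the cell cycle element CHR (TTTGAA), each on either strand, and no matches overlapped.
Kif4 (chrX:100625815-100626094, + strand): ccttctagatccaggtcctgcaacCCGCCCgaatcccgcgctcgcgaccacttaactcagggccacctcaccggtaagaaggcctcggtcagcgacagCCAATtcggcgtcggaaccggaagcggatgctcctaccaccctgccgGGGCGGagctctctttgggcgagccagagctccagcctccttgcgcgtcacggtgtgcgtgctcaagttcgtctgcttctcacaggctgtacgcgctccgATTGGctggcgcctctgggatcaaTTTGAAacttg
Cep85l (chr10:53379854-53380133, - strand): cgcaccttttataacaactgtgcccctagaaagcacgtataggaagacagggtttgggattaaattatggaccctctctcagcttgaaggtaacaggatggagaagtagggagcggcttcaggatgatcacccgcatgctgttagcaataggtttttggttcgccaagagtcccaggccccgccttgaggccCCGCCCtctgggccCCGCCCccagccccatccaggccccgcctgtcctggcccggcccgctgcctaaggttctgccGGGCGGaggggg
Cep170, an internal start (chr1:176807095-176807374, - strand): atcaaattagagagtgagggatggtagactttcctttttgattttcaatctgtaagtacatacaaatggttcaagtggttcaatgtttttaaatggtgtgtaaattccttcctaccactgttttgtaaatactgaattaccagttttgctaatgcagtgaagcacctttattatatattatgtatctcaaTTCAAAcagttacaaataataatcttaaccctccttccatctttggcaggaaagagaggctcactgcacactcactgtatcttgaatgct

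The Kif4 window held 2 GC boxes, 2 CCAAT matches, of which 1 begins 152 bases and 1 begins 5 bases before the start, and 1 CHR match that begins 19 bases after it. The peak there, of 6440 bp from chromosome X, 100625921 to 100632360, reaches 144 bp before the start. The Cep85l window held 3 GC boxes and its peak of 2800 bp reaches 117 bp before the start. Both distances are shorter than the bin in which the positions of the list are written, 230 bp on the X chromosome and 200 bp on chromosome 10. The Cep170 window, with 34.3% G and C, lies inside the gene and holds 1 CHR match and no GC box, whereas the Kif4 and Cep85l windows have 62.5% and 60.4%. Among all 32851 windows of this length the median was 52.5%, and 34.7% held a GC box, 36.1% a CCAAT and 17.2% a CHR match. The splice donor motif GTNAGT was not found in the 30 transcribed bases of any of these 3 windows and was found in 2.14% of all windows. All 3 peaks are annotated as intron although 2 of them cover the outermost start of the gene.

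Of centrosome genes on well covered chromosomes, 17 of 24 carried a peak, a share above that of coding genes of like length, and of kinesin genes 4 of 11 did. The reference table lists 119 protein-coding genes that fit the symbols, and 91 of them lie on chromosomes with a peak. Of these 91 genes 28 had a peak (30.8%, 22.2% to 40.9%), against 18.1% of all 14867 protein-coding genes there. Peaks are unevenly spread, and 8 chromosomes (1, 5, 8, 10, 12, 16, 18 and X) had a peak in at least 10% of their coding genes. On these well covered chromosomes 27 of 45 family genes had a peak (60%, 45.5% to 73.0%), against 34.5% of all 7352 coding genes. On the other chromosomes 1 of 46 had a peak, Pcmtd2, against 2.1% of 7515. Of these, chromosomes 4, 11 and 19 had a peak in 0 of 1328, 0 of 1609 and 0 of 705 coding genes. Family genes there could not have a coding peak, yet they are counted in the 46 and the 91. The remaining 28 family genes lie on chromosomes for which no peak was at hand and are not analysed here. Because gene spans differ, each family gene was also set beside the other coding genes of the same chromosome and the same decile of gene span. That share was 42.9% for the 45 genes, below the lower bound of their interval. For the 91 genes it was 22.3%, which lies just inside their interval.

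By structure, 17 of 24 centrosome genes on the well covered chromosomes had a peak (70.8%, 50.8% to 85.1%), against 42.1% of genes of like chromosome and span. For kinetochore genes it was 6 of 10 (60%, 31.3% to 83.2%) against 36.0%. For kinesins it was 4 of 11 (36.4%, 15.2% to 64.6%) against 50.9%. The intervals of the kinetochore and kinesin genes include the share of like genes, and the intervals of all 3 groups overlap one another. In RNA from a mixture of cells, fewer cells of a type and less RNA per cell cannot be told apart. The list gives no level of any RNA, so these shares are not set against expression.

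**Figure D1:**
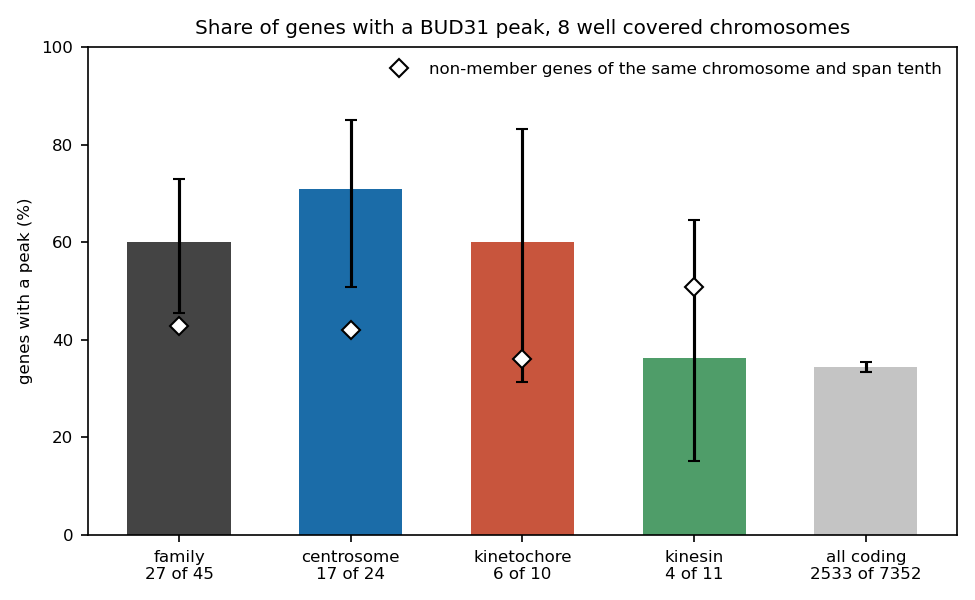
Share of genes with a BUD31 peak (%) on the 8 well covered chromosomes, for the family, its 3 groups by symbol and all coding genes, with 95% Wilson intervals as bars and counts under each name. Diamonds give non-member genes of the same chromosome and decile of span, 42.1% beside the 70.8% of centrosome genes and 50.9% beside the 36.4% of kinesins.

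The family genes without a peak on the well covered chromosomes were shorter, with a median span of 19.6 kb in 18 genes, against 58.6 kb in the 27 with one. Without a peak here means not named in a protein-coding row. By position, 32 family genes over all chromosomes with a peak overlapped one, against 28 by name. Among the kinetochore genes the 4 without a peak were Cenpa, the histone variant that marks centromeres, and Cenpn, Cenpt and Cenpw of the inner kinetochore, at 4.6 to 19.8 kb. Among centrosome genes they were Cep19, Cep20, Cep44, the augmin genes Haus1, Haus3 and Haus8, and Pcmt1, a methyltransferase taken in by the prefix. The 7 kinesins without a peak were Kif1a, a motor of axonal vesicle transport, Kif20a, a motor of cytokinesis, Kif3c, Kif21b, Kif26a, Kif26b and Kif28. Kif26b spans 403.7 kb, more than any member with a peak.

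Most member peaks lay in a few genes of all 3 groups. The members ran from 1 to 51 peaks, with a median of 4.5 (interval of the median 2 to 5), against 2 (2 to 3) in other protein-coding genes with a peak. Of these 2682 other genes, the per-gene values given here use only those matched to a RefSeq gene extent on the same chromosome. There was 1 peak in 7 members (25%, against 32.0% of the other genes), 2 to 6 in 15 and 10 or more in 6 (21.4%, against 13.6%). The 4 members with the most peaks, Cep128, Cep170, Cenpf and Cep350, held 126 of the 219 (57.5%). The 6 with at least 10, which also include Cep192 and Kif4, held 69%, against 53.2% in the other genes. A larger share of members than of other genes reached 10 peaks, so these values do not rest on like shares of genes. Members were also longer, with a median span of 58.2 kb against 37.2 kb. Per 100 kb of gene span the median over genes was 6.86 peaks (4.70 to 12.8) in members against 8.92 (8.38 to 9.33) in other genes. With all genes pooled it was 10.5 against 7.38, so the direction per length differed between the median gene and the pooled sum. The share of the gene covered had a median of 12.8% (7.44% to 36.3%) against 13.5% (12.4% to 14.6%), and pooled it was 24.6% against 18%. Beside coding genes with a peak on the same chromosome and of a span within 1.5 times, 14 of 28 members had more peaks than the median of these peers, 8 had as many and 6 had fewer. For the share of the gene covered, 13 lay above the median of the peers and 15 below it.

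**Figure D2:**
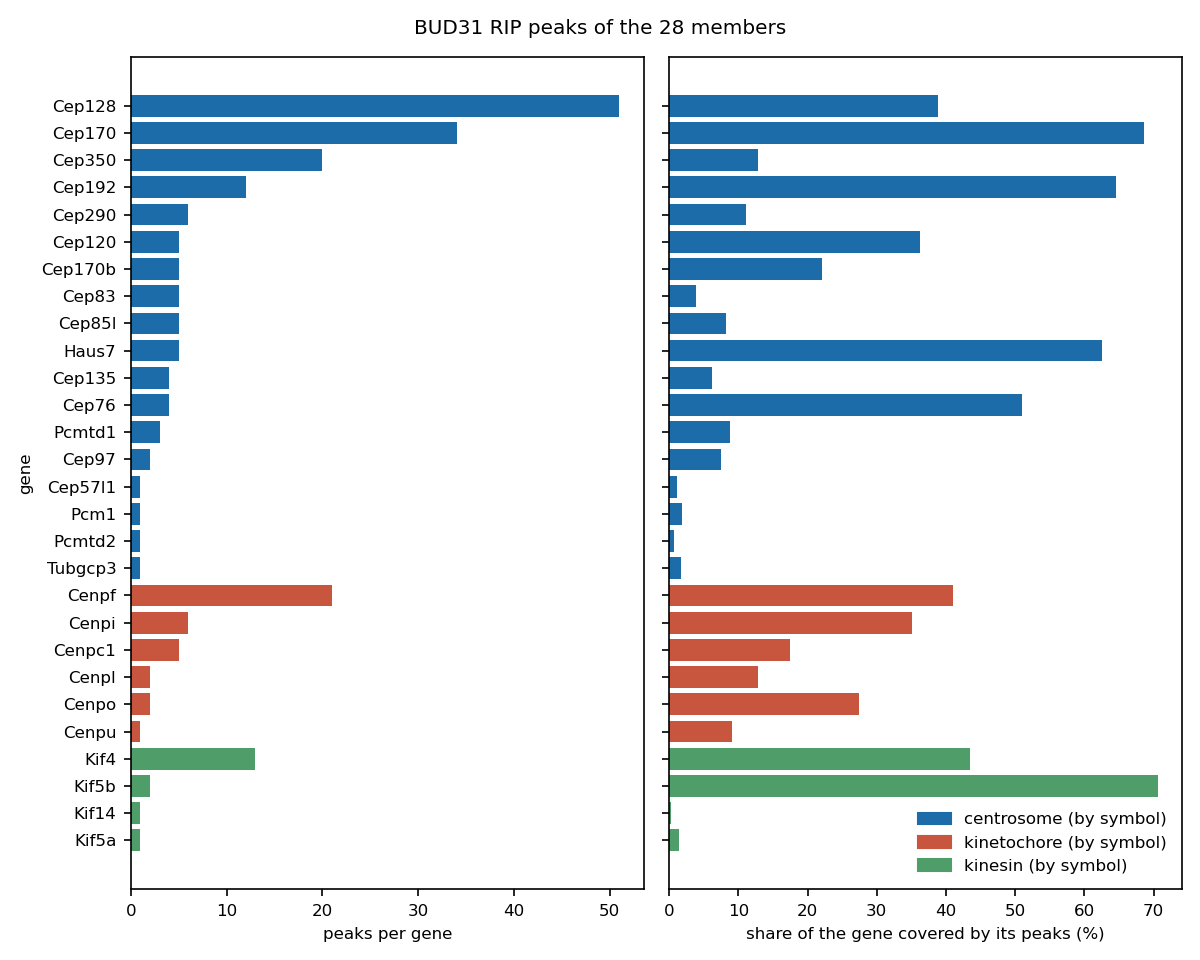
Number of peaks (left) and share of the gene covered by its peaks in % (right) for each of the 28 members, coloured by group. Cep128 leads in number with 51 peaks, while Kif5b with 2 peaks leads in covered share with 70.6%.

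**Figure D3:**
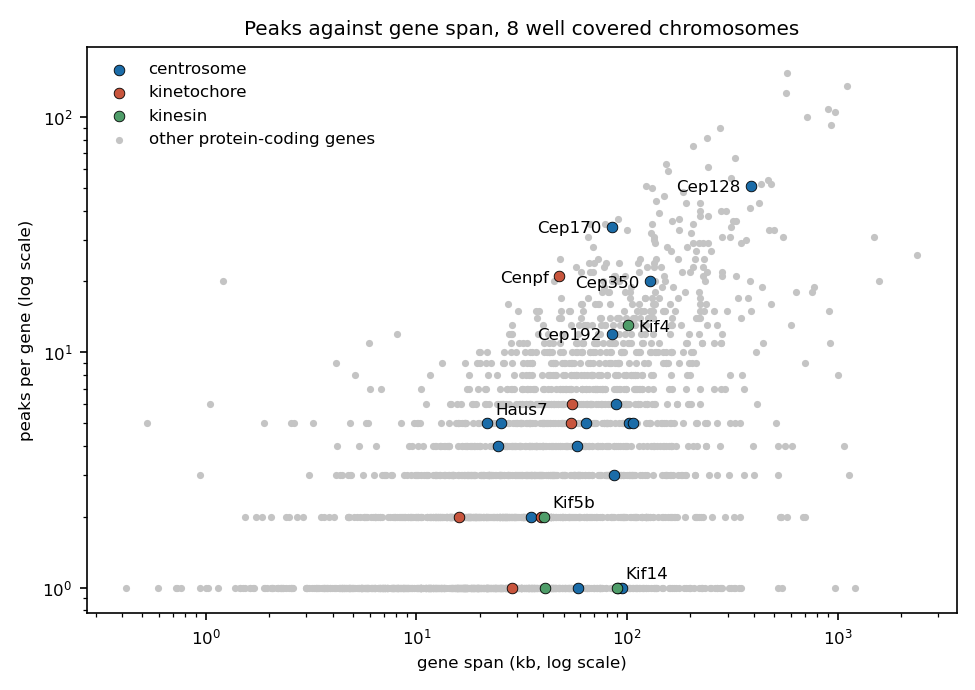
Peaks per gene against gene span in kb, both on log scales, for the members (coloured) and the other protein-coding genes with a peak (grey) on the 8 well covered chromosomes. Cep170 and Cenpf lie near the upper edge for their span, Cep128 has 51 peaks at 386.0 kb, and Kif14 has 1 peak at 89.6 kb.

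Cep128, a protein of the subdistal appendages of the mother centriole, carried 51 peaks over chromosome 12, 90998490 to 91384455. They covered 38.9% of its 386.0 kb, and 49 were annotated as intron, 1 as 3′ UTR and 1 as 5′ UTR. The narrowest had 205 bp, the widest 13530 bp and the median 1640 bp. Of 11 other genes of like span on chromosome 12, 10 had fewer peaks, with a median of 17. The peaks reach from one end of the gene to the other, with a longest gap of 34.2 kb. Rows of the list carry running numbers, and the 51 peaks lie in a stretch of 110 such numbers. The other 59 are not all absent from the list, since a row of a noncoding Cep128 transcript (91007906 to 91012005) lies between these peaks. How many of the 59 are absent was not counted. Over the whole list the numbers reach 65288 for 16331 peaks, so what is listed is a part of a longer set.

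Cep170, which binds the same appendages and microtubules, carried 34 peaks over chromosome 1, 176729072 to 176813979. They covered 68.6% of its 84.9 kb, more than in 89 of 100 genes of like span there, and 96 of these had fewer peaks, with a median of 7.5. Unlike the other members it carried a run of 5 peaks annotated as 3′ UTR, of 205 to 1640 bp, all between 176729476 and 176735625. The other 29 were annotated as intron. Its paralog Cep170b on chromosome 12 carried 5 intron peaks over 22.1% of 25.1 kb, 3 of them of 205 bp.

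Among the intron peaks of Cep170 is 1 of 5740 bp, at 176767811 to 176773550, that spans the microRNA gene Mir350 on the same strand. The mature microRNAs are given with their seed, bases 2 to 8, in capitals, from RefSeq (GRCm38.p6).
mmu-miR-350-3p (chr1:176772342-176772363, - strand): uUCACAAAgcccauacacuuuc
mmu-miR-350-5p (chr1:176772382-176772400, - strand): aAAGUGCAugcgcuuuggg
Their seeds differ. The peak is far wider than the microRNA and the list names it for Cep170, so RNA of the host intron and of the microRNA precursor cannot be told apart.

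Cep350, which anchors microtubules at the centrosome, carried 20 peaks over chromosome 1, 155844964 to 155973270, in another form. They covered only 12.8% of 128.3 kb, and 11 of the 20 had the width of a single bin, 205 bp. There were 17 intron and 3 exon peaks, and the widest, of 3075 bp at 155860476 to 155863550, was an exon peak. Of 73 genes of like span 55 had fewer peaks, but 43 had a larger covered share. There was a gap of 40.2 kb without a peak, and 8 of the intron peaks also overlap the gene Gm51652.

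Cep192, a scaffold of the pericentriolar material, carried 12 intron peaks over chromosome 18, 67800054 to 67885170. They were wide, at 600 to 7400 bp (median 5100 bp), and covered 64.6% of 85.1 kb. Of 45 genes of like span on that chromosome 42 had fewer peaks, with a median of 6. Cep350 and Cep192 thus differed more in covered share than in number of peaks. Chromosome 18 has wide peaks in general, with a median of 4800 bp in its 4 members and 3400 bp in the other coding genes, against 820 and 1025 bp on chromosome 1.

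**Figure D4:**
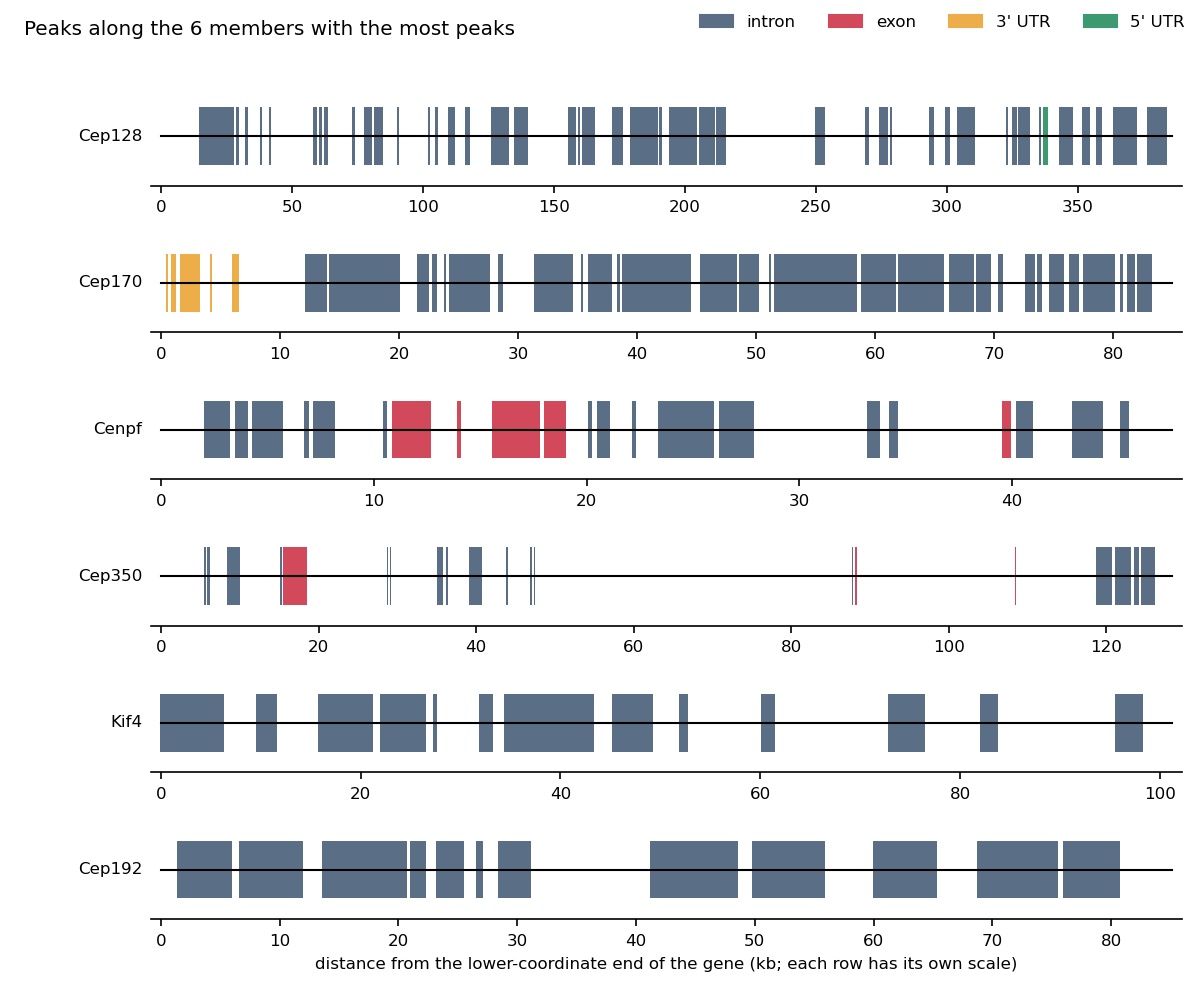
Peaks along the 6 members with the most peaks, at true width, by distance in kb from the lower-coordinate end of each gene and coloured by annotation. Cep170 and Cep192 are covered over 68.6% and 64.6% of their length, and Cep350, with 20 peaks, over 12.8%.

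The other centrosome members carried 1 to 6 peaks. Cep290, a protein of the ciliary transition zone, had 6 over 11.1% of its span, and the exon peak of 2000 bp is 1 of these. Cep120, which promotes centriole elongation, had 5 intron peaks of 1600 to 8200 bp over 36.3%. Haus7, the X-linked subunit of the augmin complex that branches spindle microtubules, had 5 intron peaks over 62.5% of 21.7 kb, and no running number is absent between them. Cep76, which limits centriole duplication, had 4 peaks over 51.0% of 24.4 kb on chromosome 18, and 1 of these was annotated as exon and 1 as 3′ UTR. Of 52 genes of like span there 45 had fewer.

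Cep83, of the distal appendages, had 5 intron peaks over 3.93% of its span. Cep85l also had 5, over 8.16%. Cep135, of the centriole cartwheel, had 4 peaks, and the 2 nearest its 5′ end, annotated as intergenic and as 5′ UTR, lie outside the extent of the gene in the reference table. Cep97, which caps centrioles, had 1 intron peak and 1 peak of 1600 bp in the 3′ UTR. Single peaks were found in Cep57l1, in Pcm1, the scaffold of centriolar satellites, in Tubgcp3, a subunit of the γ-tubulin ring complex, and in Pcmtd2. That of Tubgcp3 was annotated as 3′ UTR although it lies at the middle of the gene (chromosome 8, 12638001 to 12639000, in a gene from 12614277 to 12672854). Pcmtd1 had 2 intron peaks and 1 in the 3′ UTR.

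Among kinetochore genes Cenpf stood apart. Cenpf, a large protein of the outer kinetochore and nuclear envelope that accumulates before mitosis, carried 21 peaks over chromosome 1, 189640606 to 189688107, at 44.2 peaks per 100 kb. They covered 41.0% of 47.5 kb, and 123 of 132 genes of like span had fewer peaks, with a median of 6. It held 5 of the 11 exon peaks of all members, and 4 of these, of 205 to 2255 bp, follow each other between 189651446 and 189659645.

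The other 5 kinetochore members belong to the inner kinetochore complex on centromeric chromatin. Cenpi on the X chromosome had 6 intron peaks over 35.1% of the gene. Cenpc1, which binds centromeric nucleosomes, had 4 intron peaks and 1 exon peak over 17.4%. Cenpl had 2 intron peaks over 12.8%, Cenpo had 2 over 27.4%, and Cenpu had 1 of 2600 bp over 9.11%. In protein-coding rows named for them, Cenpi, Cenpl, Cenpo and Cenpu each had no more peaks than the median of their peers. With rows of its noncoding transcripts Cenpl had 5 peaks over 45.0% of the gene, where the peers' median of 2 counts protein-coding rows alone. The extent of Cenpo also holds 2 peaks of 7380 and 8610 bp named for Adcy3, which neither its count nor its covered share includes.

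Of the 4 kinesins, Kif4 and Kif5b were covered over long stretches and Kif14 and Kif5a hardly at all. Kif4, a motor that binds chromosome arms, carried 13 intron peaks over 43.5% of chromosome X, 100626065 to 100727271. The 7 peaks towards its 3′ end also overlap the gene Gm52438 and the peak over its start also overlaps Pdzd11, and without strand these genes cannot be separated. Kif5b, the heavy chain of conventional kinesin found in most tissues, carried 2 intron peaks of 20000 and 8600 bp on chromosome 18, the first from 6203801 to 6223800. The larger is the widest peak of any member and covers 49.4% of the gene by itself. Kif5a, the neuronal form of the same heavy chain on chromosome 10, had 1 peak of 600 bp in the 3′ UTR, over 1.48% of 40.7 kb. The chromosomes differ too: genes of like span had a median covered share of 25.5% beside Kif5b on chromosome 18 and of 4.05% beside Kif5a on chromosome 10. Kif14, a motor of cytokinesis, had 1 intron peak of 205 bp in 89.6 kb, and 89 of 100 genes of like span on chromosome 1 had more.

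Side by side, the centrosome members had a median of 5 peaks per gene (n = 18), the kinetochore members 3.5 (n = 6) and the kinesins 1.5 (n = 4), at median spans of 85.0, 43.2 and 65.1 kb. Per 100 kb the order was another: 10.1 peaks in kinetochore members, 6.86 in centrosome members and 3.70 in kinesins. The intervals of these medians overlap, at 3.50 to 44.2, 3.66 to 15.6 and 1.12 to 12.8, and for 4 genes the interval is the whole range. With peaks assigned to genes by position, or with peaks of noncoding transcripts included, the kinetochore median was 5 peaks per gene, equal to that of centrosome members. The kinesin median ran from 1 to 2.5 over the settings tried. The median covered share was 9.94% (3.93% to 38.9%) for centrosome, 22.4% (9.11% to 41.0%) for kinetochore and 22.5% (0.229% to 70.6%) for kinesin members, and these intervals overlap widely. Pooled over the genes it was 23.9%, 26.5% and 27.0% in the same order.

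Introns held 194 of the 219 member peaks (88.6%, 83.7% to 92.1%), against 84.5% (83.9% to 85.1%) of 14192 peaks of other protein-coding genes. Only 1 member peak, that of Cep135, was annotated outside a gene (0.457%, 0.0806% to 2.54%), against 5.64% (5.28% to 6.04%). These intervals do not overlap, but they take peaks as independent, and 126 of the 219 lie in 4 members. Members were also longer than the other genes, and these shares were not matched for span. Exons and UTRs held 11% (7.48% to 15.8%) against 9.85% (9.37% to 10.4%). With the widest peak of each gene alone, 5 of 28 members had it in an exon or UTR (17.9%, 7.88% to 35.6%), against 16.6% of other genes. In 16 members every peak was annotated as intron, and 12 had at least 1 exon or UTR peak.

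Exon peaks made up 6 of 37 peaks in kinetochore members (16.2%, 7.65% to 31.1%), 5 of 165 in centrosome members (3.03%, 1.30% to 6.90%) and 0 of 17 in kinesins. The first share rests on Cenpf, which holds 5 of the 6. Peaks in the 3′ UTR were found in 7 members and numbered 10 in centrosome genes, 1 in a kinesin and 0 in kinetochore genes. Peaks of 1 gene share their transcript and are not independent, and 1 class is given per peak, so a wide intron peak can also cover exons.

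The median peak width was close in members and elsewhere. It was 1435 bp (quartiles 615 and 3075 bp) in members and 1400 bp (615 and 3075 bp) in other coding genes, or 7 bins in both. The median was 1600 bp in centrosome, 1230 bp in kinetochore and 2760 bp in kinesin members, but 13 of the 17 kinesin peaks are those of Kif4 on the X chromosome, where other coding genes also had wider peaks (median 1840 bp). Single-bin peaks made up 16.0% (11.7% to 21.4%) against 13% (12.5% to 13.6%), and Cep350 held 11 of the 35. At the other end 8 member peaks were at least 8000 bp wide, 4 of them in Cep128, 2 in Kif5b and 1 each in Kif4 and Cep120.

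**Figure D5:**
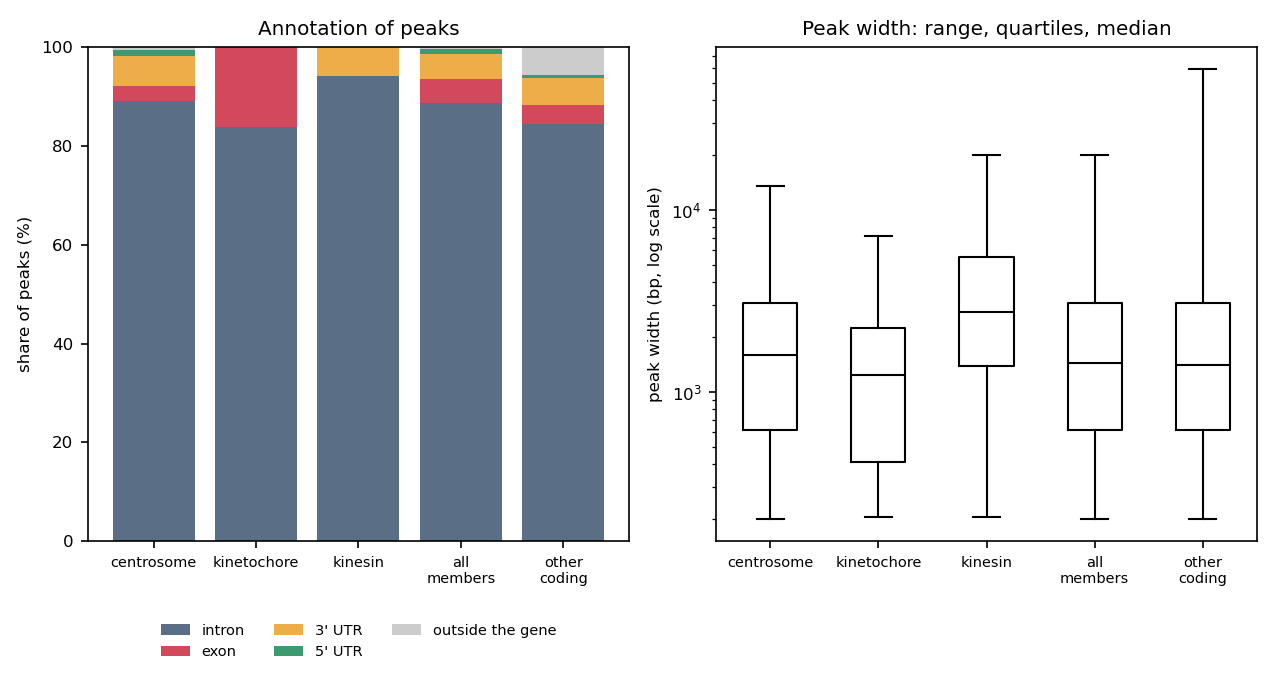
Left, share of peaks by annotation (%) in each group, all members and other coding genes. Right, peak width in bp on a log scale, with whiskers at the range, boxes at the quartiles and lines at the median, which is 1435 bp in members and 1400 bp in other coding genes.

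On average the peaks were spread along the members. For the 19 with a known strand, each gene was divided into 5 equal segments, from segment 1 at the 5′ end. The mean covered share was 20.1, 26.1, 20.7, 22.7 and 20.6% from segment 1 to segment 5, against 21.8, 23.7, 23.7, 23.6 and 23.5% in 2117 other genes. Single members differed from this even spread. In Kif4 segments 1 and 2 were covered over 63.6 and 67.0% and segment 5 over 22.7%. Both peaks named for Cenpo lay in segments 1 and 2. Inside the extent of Cenpo, 2 further peaks of 7380 and 8610 bp are named for Adcy3 and are not counted in these shares. In Haus7, by contrast, segment 1 was covered over 9.53% and the next over 89.4%.

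Genes of the same structures whose symbols the rule does not take were read from 3 lists. On the well covered chromosomes 12 of 16 centriole and pericentriolar genes had a coding peak (75%, 50.5% to 89.8%), against 43.5% of coding genes of like chromosome and span. Ofd1, an X-linked centriole gene, led with 13 peaks over 55.2% of its span, the centrosomal kinase gene Nek2 had 8, Cspp1 had 7 over 63.7% and Pcnt, a scaffold of the pericentriolar material, had 5. Of kinetochore and checkpoint genes 8 of 10 had one (80%, 49.0% to 94.3%) against 41.4%. Mad1l1, of the spindle checkpoint, had 55 intron peaks over 10.9% of 312.9 kb, Nsl1 had 10 over 30.4% and Kntc1 had 7 over 8.34%. Of other motors, adaptors and spindle genes 7 of 14 had one (50%, 26.8% to 73.2%) against 39.5%, led by the kinesin adaptor Kifap3 with 28, Clasp1 with 18, the dynein heavy chain Dync1h1 with 17 and Clip1 with 14.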

How the data were processed

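The deposited data are 1 list of annotated peaks from the BUD31 RIP library and its input. The submitters' processing notes name TopHat2 2.0.13 and the mm10 build. Which program called the peaks, at what threshold and with what use of the input is not given in the sources used here. Per the file headers, the other values the authors deposited are peak starts and ends in bp, 1-based, with an annotation, a transcript, a gene and a type, and no count or score. The type belongs to the transcript named, so peaks of noncoding transcripts of a member are not members.

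Gene extents came from a RefSeq table of GRCm38.p6, matched by gene number for all 28 members. A gene has a peak when the list names it in a protein-coding row. The covered share is the overlap of its peaks with its extent. Like genes share the chromosome and the tenth of gene span (10 groups), and peers have a peak, the same chromosome and a span within 1.5 times. Intervals of medians are order-statistic intervals. The functions were tested on simulated data.

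The members and lists were chosen with earlier results of these data known, so counts are descriptions. Named genes were, per group, the 6 with the most peaks and the 3 with the largest covered share, the 4 marker genes Cep128, Cep170, Cep350 and Cep192, members with exon or UTR peaks, the extremes of width, and up to 4 genes per list (ties by symbol), of which 1 is not reported here. Alternatives were wider peaks alone, genes by position, peaks inside genes, and other member or chromosome sets. Python 3.11.15, numpy 2.4.6, pandas 2.3.3, scipy 1.17.1 and matplotlib 3.10.9 were used.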

Additional observations from a re-analysis of the deposited data

How the results depend on the processing

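Of 64 recomputed values, 8 results under 8 settings, 62 stayed within the counting interval of the reported one and 2 lay outside it. For the median peaks per gene of kinetochore and kinesin members that interval, 1 to 21 and 1 to 13, is the whole range of the genes. Staying within it therefore says little about how stable these 2 medians are. On the well covered chromosomes alone the share of family genes with a peak was 60%, against 30.8% over all chromosomes with a peak. With peaks of at least 3 bins alone the median width of member peaks was 2000 bp, against 1435 bp, as narrower peaks are removed by construction. Elsewhere the share of intron peaks ran from 86.3% to 90.1%, the median number of peaks per gene from 4 to 5 (4 to 5 in centrosome, 3 to 5 in kinetochore and 1 to 2.5 in kinesin members) and the median covered share from 12.8% to 17.4%. Genes assigned by position, and noncoding rows, put the kinetochore median at 5, equal to that of centrosome members. The setting that adds peaks of noncoding transcripts was chosen after seeing the data. A stricter threshold of the peak caller could not be tried, since the list holds no score. No paired analysis was possible because there is 1 library per group and the results come from no test. The 4 kinesins and 6 kinetochore genes are too few for narrow intervals, and depth is unknown.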

Other observations

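Rows of the same symbols with a noncoding type were 16 in number. Of these 7 belong to members: 3 to Cenpl, 3 to Pcmtd1 and 1 to Cep128. With them Cenpl had 5 peaks over 45.0% of the gene, against 2 over 12.8% with its protein-coding rows alone, and Pcmtd1 had 6 over 22.7%. Tubgcp4, a subunit of the γ-tubulin ring complex on chromosome 2, had 2 intron peaks of 400 and 600 bp, both named for a noncoding transcript, and is not a member.

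Kif4-ps, a pseudogene of Kif4 on chromosome 12 (101145609 to 101149273), is named for 6 intergenic peaks of 410 to 4510 bp. They lie from 101220596 to 101261800, and the nearest starts 71323 bp beyond the pseudogene, so none of them overlaps the copy itself. The antisense gene Cep83os had 1 exon peak of 2000 bp.

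Of the 219 member peaks 22 also overlap another gene of the reference table, and 8 of these are those of Kif4, 8 those of Cep350 and 3 those of Cep128. Inside the extent of members lie further peaks named for other genes, such as 2 of 7380 and 8610 bp in Cenpo that the list names for Adcy3, and 1 of 15000 bp in Cep120 named for Gm19466.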
